A study of Mus musculus with 6 samples.

Results

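The glycolysis, pentose phosphate and tricarboxylic acid (TCA) cycle genes are a set of 38 genes of central carbon metabolism chosen by name. Of these, 37 had a row among the 15912 genes of the deposited normalized counts, namely 15 of the 16 glycolysis genes, all 6 pentose phosphate genes and all 16 genes of pyruvate entry and the TCA cycle. The glycolytic enolase gene Eno1 was not analysed here. All 37 passed the filter on low values.

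The libraries came from hippocampal microglia, the resident macrophages of the brain, of male C57BL/6 mice aged 3 months. Every mouse had received lipopolysaccharide (LPS), a bacterial cell wall component, at 1 mg/kg into the peritoneum over 4 days, and tissue was collected 24 h after the last dose. BODIPY-high microglia, rich in lipid droplets, were set against BODIPY-low microglia; BODIPY is a dye that stains neutral lipids. Each gate had 3 libraries, each from the pooled hippocampi of 2 mice and about 10000 live cells sorted as CD11b+CD45lo. Both gates carried the LPS treatment, so no value here bears on LPS itself.

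Glycolysis splits glucose into pyruvate in the cytosol, with a preparatory stage that spends ATP and a payoff stage that returns ATP and NADH. The pentose phosphate pathway branches off at glucose phosphate; its oxidative arm makes NADPH, the reductant of fatty acid synthesis and of the phagocyte oxidase, and its non-oxidative arm exchanges sugar phosphates with glycolysis. The TCA cycle oxidizes acetyl-CoA in mitochondria, and its citrate can leave to supply fatty acid synthesis. Macrophages stimulated with LPS are known for a shift towards glycolysis with lactate release.

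The libraries held 34899413 to 39220494 reads. Summed microglial markers, none of them at 0, made up 2021590 to 2786810 normalized counts in BODIPY-high libraries and 2607340 to 3053710 in BODIPY-low libraries, and 0 of 14 passed the gene test (limma; 0 higher and 3 lower at an unadjusted p under 0.05, and 2 called lower when libraries were paired by number). All 14 had a negative fitted change, with a median log2 change of -0.25. Markers of other cells differed between the gates as well. All 8 choroid plexus markers were called higher, with summed levels of 39766 to 52094 in BODIPY-high and 308 to 2327 in BODIPY-low libraries, and so were 9 of 12 markers of border-associated macrophages, with sums of 43994 to 122302 in BODIPY-high and 17574 to 24502 in BODIPY-low libraries. Summed oligodendrocyte markers (8343 to 14732 in BODIPY-high and 7192 to 7314 in BODIPY-low libraries, 2 of 7 called), oligodendrocyte precursor markers (93.1 to 334 in BODIPY-high and 4.13 to 30.7 in BODIPY-low libraries, 2 of 4 called, 1 marker at 0 in BODIPY-low) and erythroid markers (639.6 to 1758 in BODIPY-high and 25.2 to 139 in BODIPY-low libraries, 1 of 2 called) did not overlap between gates either. BODIPY-high library 3 had the highest sums of border-associated macrophage, neutrophil and monocyte markers of the 6 libraries. The part of these cells in the results below was not tested, and in bulk RNA a different number of cells of a type cannot be told apart from a different amount of RNA per cell.

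Of the 3 pathways, glycolysis held the only gene that passed the test over all genes. Pfkp, the platelet-type isozyme of phosphofructokinase, was 5.50-fold higher in BODIPY-high microglia. No other member passed, while 259 of 12767 genes tested (2.03%) were called higher and 3 (0.0235%) lower (limma, adjusted p under 0.05). When libraries of the same number were paired, 558 genes (4.37%) were called higher and 59 (0.462%) lower, and the members called higher were Pfkp, Pkm and Ogdh. Without adjustment, 4 members were higher at p under 0.05, namely Pfkp, Pkm, Ogdh and Idh3a, and 1 was lower, Slc16a3, against 8.03% and 2.27% of all genes. The fitted log2 change was above 0 in 28 of 37 members, against 49.2% of all genes.

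**Figure D1:**
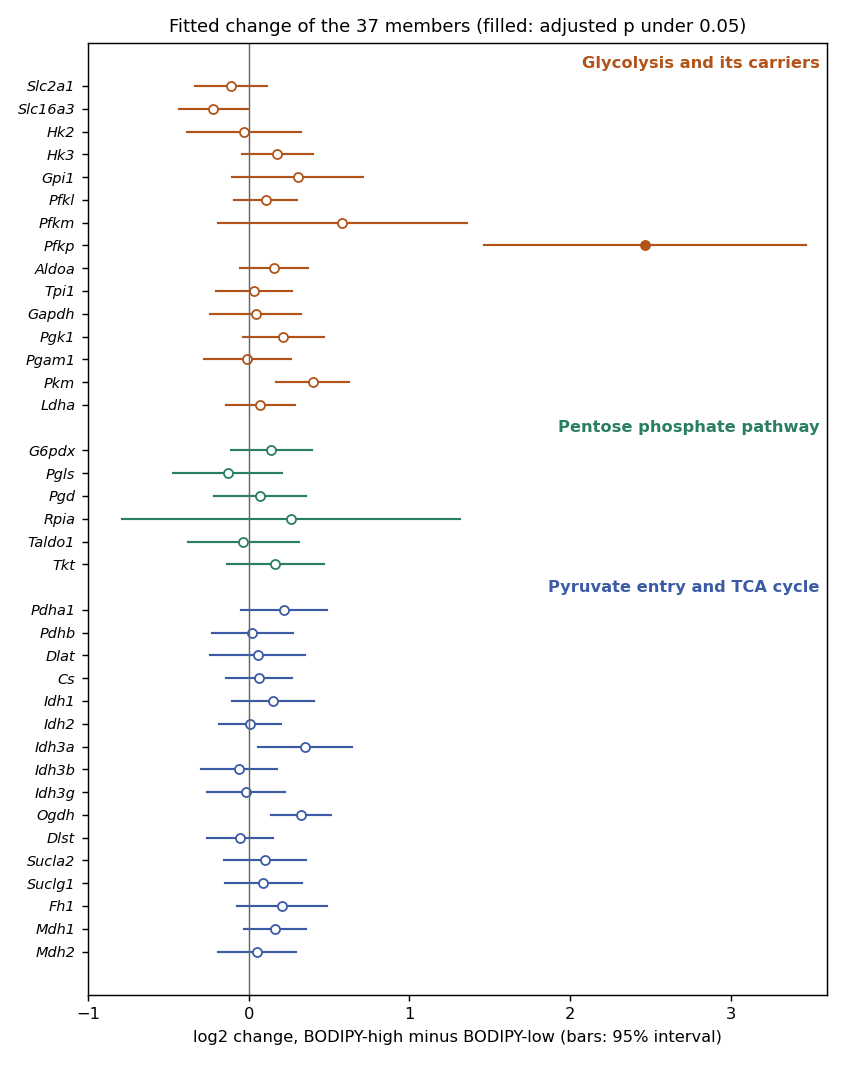
Fitted log2 change of each of the 37 members, BODIPY-high minus BODIPY-low, on the log2(normalized count + 1) scale; points are limma estimates from 3 libraries per gate, bars their 95% intervals, and the filled point passed the test over all genes. Pfkp lies at 2.47 and every other member between -0.22 and 0.58.

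Most members had intervals that left room for small changes only. The 95% interval of the change lay within 1.5-fold in either direction for 31 of 37 members, which were 11 of 15 in glycolysis, 5 of 6 in the pentose phosphate pathway and 15 of 16 in the TCA set. The same held for 49.9% of all genes and for 87.2% of the 5297 genes with a mean of at least 1000 normalized counts, a level that 34 members reached. For these members an effect above that size was outside the interval, while smaller ones were not resolved with 3 libraries per gate.

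Levels, compared per kilobase of transcript, spanned a wide range within each pathway. Averaged over the 6 libraries, glycolysis ran from 73.7 normalized counts per kb for Pfkm, the muscle-type phosphofructokinase, to 16862 for Gapdh, which makes the NADH of glycolysis. The pentose phosphate genes ran from 20.7 per kb for Rpia, the ribose phosphate isomerase, to 5108 for Taldo1, the transaldolase. The TCA set was narrower, with 389 per kb for Dlat, an acetyltransferase subunit of the pyruvate dehydrogenase complex, and 3465 for Mdh2, the mitochondrial malate dehydrogenase. Pathway medians of these levels were 1985 per kb in glycolysis, 1639 in the pentose phosphate pathway and 1260.5 in the TCA set.

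**Figure D2:**
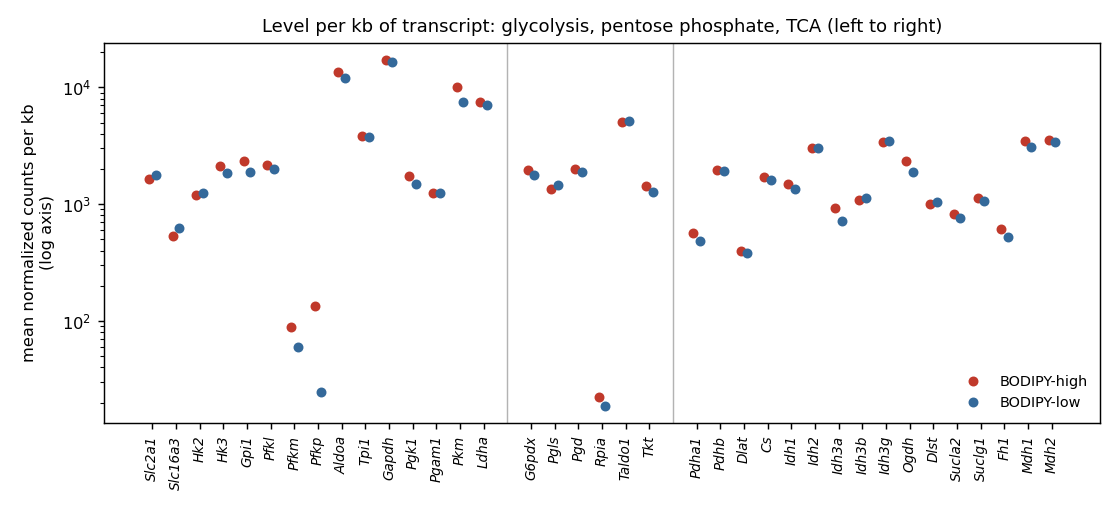
Mean level of each member per kb of transcript (normalized counts per kb, log axis) in BODIPY-high and BODIPY-low libraries (n = 3 each), with glycolysis, pentose phosphate and TCA genes from left to right. The 2 gates lie close together for nearly every gene, and Pfkp, at 134 per kb in BODIPY-high and 24.4 in BODIPY-low, shows the widest gap.

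Glycolysis begins with uptake of glucose and ends, in stimulated macrophages, with export of lactate. The set holds 1 carrier for each, and the fitted changes of both were negative and did not pass the test. Other glucose and lactate carriers, outside the set, had changes of either sign, and none of them passed. Slc16a3, the lactate exporter of glycolytic cells, had 2284, 2228 and 2426 normalized counts in BODIPY-high libraries 1, 2 and 3, against 2772, 2542 and 2767 in BODIPY-low libraries. Its gates did not overlap, and it was the only member of which all BODIPY-high libraries lay below all BODIPY-low libraries, as 5.95% of all genes did. The fitted log2 change was -0.22 ± 0.09 (SE; limma adjusted p = 0.471; 0.198 with pairs). Slc2a1, the basal glucose transporter, had 5436, 5849.9 and 4766 normalized counts in BODIPY-high and 5906, 5625 and 5761 in BODIPY-low libraries, which overlapped (log2 change -0.11 ± 0.10, adjusted p = 0.81).

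Hexokinases trap glucose as its phosphate. Hk2, the inducible isozyme, averaged 6553 ± 170.3 normalized counts in BODIPY-high and 6819 ± 1546 in BODIPY-low libraries (SD, n = 3 each), and the gates overlapped. Hk3, an isozyme of myeloid cells, had 6227, 6593 and 7562 in BODIPY-high and 5726, 6138 and 6090.1 in BODIPY-low libraries, with no overlap, yet its log2 change of 0.18 ± 0.10 did not pass (adjusted p = 0.617). Per kb, Hk3 gave 56.0 ± 2.26% of the hexokinase signal in BODIPY-high and 53.9 ± 5.67% in BODIPY-low libraries, and Hk2 gave 31.7 ± 1.91% in BODIPY-high and 35.4 ± 5.73% in BODIPY-low libraries. Hk1, the housekeeping isozyme, which is outside the set, gave the rest, with 12.3 ± 0.353% in BODIPY-high and 10.7 ± 0.0602% in BODIPY-low libraries, and the gates did not overlap in this share.

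Gpi1, the isomerase that turns glucose phosphate into fructose phosphate, had 5260.3, 6352 and 8702 normalized counts in BODIPY-high and 4621, 6064 and 5513 in BODIPY-low libraries. The gates overlapped and BODIPY-high library 3 stood above the rest; the ratio of means was 1.25, or 1.08 without that library (log2 change 0.30 ± 0.18, adjusted p = 0.658).

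Phosphofructokinase makes the committed step of glycolysis, and 1 of its 3 isozymes passed the test. Pfkp had 301, 630.2 and 739 normalized counts in BODIPY-high libraries 1, 2 and 3, against 50.5, 123 and 131 in BODIPY-low libraries. The lowest BODIPY-high library was above the highest BODIPY-low library by a wide margin, and library 1 was the lowest of both gates. The means were 557 ± 228 in BODIPY-high and 101 ± 44.2 in BODIPY-low libraries (SD, n = 3 each), from 1737 and 289 reads. The log2 change was 2.47 ± 0.44 (95% interval 1.46 to 3.47; limma adjusted p = 0.0283), and 9.28e-05 was the adjusted p with pairs, whose log2 differences were 2.55, 2.35 and 2.49. The unpaired call was lost without BODIPY-high library 2 (adjusted p = 0.151), BODIPY-high library 3 (0.121), BODIPY-low library 1 (0.0593) or BODIPY-low library 2 (0.0679), and the ratio of means stayed between 4.40 and 6.76 with any 1 library left out.

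Pfkp lies on the minus strand at chr13:6579768-6648777 (GRCm38, GENCODE M21), and its exons share 1023 bases with those of Pitrm1, a mitochondrial protease gene on the other strand. The library kit keeps no strand, so reads of that stretch cannot be assigned to one of them. Pitrm1 had 1339, 1508 and 1611 normalized counts in BODIPY-high and 1065, 1226 and 1228 in BODIPY-low libraries, a log2 change of 0.34 ± 0.12 (limma adjusted p = 0.34). The summed choroid plexus, border-associated macrophage, oligodendrocyte, oligodendrocyte precursor and erythroid markers given above also lay higher in all BODIPY-high than in all BODIPY-low libraries. The same held for summed astrocyte markers and neuron markers (79.8 to 123 in BODIPY-high and 21.1 to 72.2 in BODIPY-low libraries, 0 of 3 called, 2 markers at 0 in BODIPY-low). The part of these cells in the change of Pfkp was not tested.

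Pfkl, the liver-type isozyme and by far the most abundant of the 3, had 8202, 8200.0 and 7695 normalized counts in BODIPY-high and 7824, 7007 and 7593 in BODIPY-low libraries, which overlapped (log2 change 0.10 ± 0.09, adjusted p = 0.787). Pfkm had 223, 189 and 347 in BODIPY-high and 117, 149.5 and 247 in BODIPY-low libraries, also with overlap (0.58 ± 0.34, adjusted p = 0.657). Per kb, Pfkp therefore supplied 3.09, 6.29 and 7.55% of the phosphofructokinase signal in BODIPY-high and 0.566, 1.51 and 1.46% in BODIPY-low libraries. The share of Pfkl was 90.6 ± 3.14% in BODIPY-high and 96.0 ± 1.5% in BODIPY-low libraries, without overlap. The 3 genes together had 2349, 2416 and 2362 normalized counts per kb in BODIPY-high and 2150.5, 1960.0 and 2153 in BODIPY-low libraries, a ratio of 1.14.

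**Figure D3:**
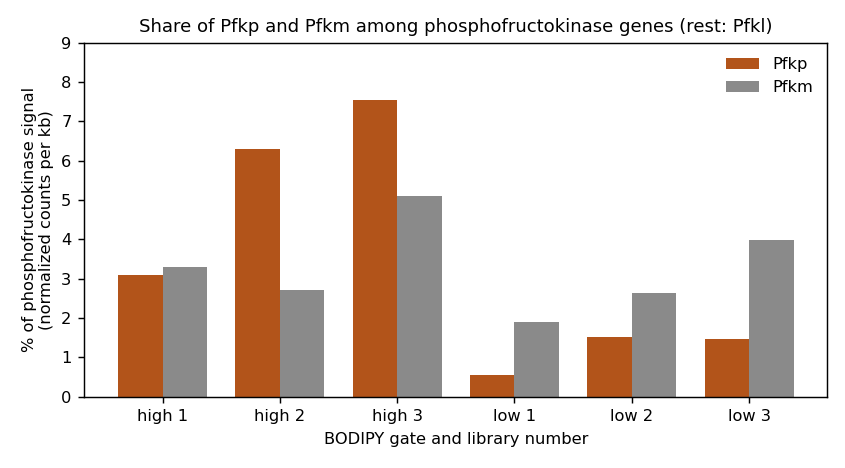
Share of Pfkp and of Pfkm in the summed phosphofructokinase signal of each library, in percent of normalized counts per kb; bars are single libraries and Pfkl makes up the remainder. Pfkp reaches 3.09 to 7.55% in the 3 BODIPY-high libraries and 0.566 to 1.51% in the 3 BODIPY-low libraries.

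Later in the preparatory stage, Aldoa, the main aldolase of these cells, had 19538, 20191 and 21198 normalized counts in BODIPY-high and 16737, 19416 and 18488 in BODIPY-low libraries. The gates did not overlap, but the change was small and did not pass (log2 0.16 ± 0.09, adjusted p = 0.653). Tpi1, which interconverts the triose phosphates, overlapped between gates (0.03 ± 0.10). Of the 8 preparatory genes 7 had a log2 change above 0, with a median of 0.17.

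In the payoff stage 4 of 5 genes had a log2 change above 0, with a median of 0.07, and none passed the unpaired test. Pkm, pyruvate kinase, had 21464, 26307 and 25065 normalized counts in BODIPY-high and 18852, 18459 and 17751 in BODIPY-low libraries, without overlap. The means were 24279 ± 2516 in BODIPY-high and 18354 ± 558 in BODIPY-low libraries, a ratio of 1.32. The log2 change of 0.40 ± 0.10 had a limma adjusted p of 0.11 and passed only with pairs (0.0227). Pkm lies on the plus strand at chr9:59656368-59679375, and gene-level counts do not part its M1 and M2 splice forms.

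Gapdh, the most abundant member, had 20934, 24061 and 28086 normalized counts in BODIPY-high and 21391, 23675 and 25516 in BODIPY-low libraries (log2 change 0.04 ± 0.13). Ldha, which turns pyruvate into lactate, had 11832, 14239 and 13378 in BODIPY-high and 12295, 12757 and 12381 in BODIPY-low libraries (0.07 ± 0.09). Both overlapped, as did Pgam1, the phosphoglycerate mutase (-0.01 ± 0.12). Pgk1, the first ATP-making kinase of glycolysis, had 2868, 3009 and 3576 in BODIPY-high and 2812, 2523 and 2779 in BODIPY-low libraries, narrowly without overlap (0.22 ± 0.11, limma adjusted p = 0.588). Ldhb, the other lactate dehydrogenase subunit, held 69.0 ± 2.02% of the per kb signal of the pair in BODIPY-high and 70.4 ± 1.54% in BODIPY-low libraries, so Ldha was the lesser subunit in both gates.

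**Figure D4:**
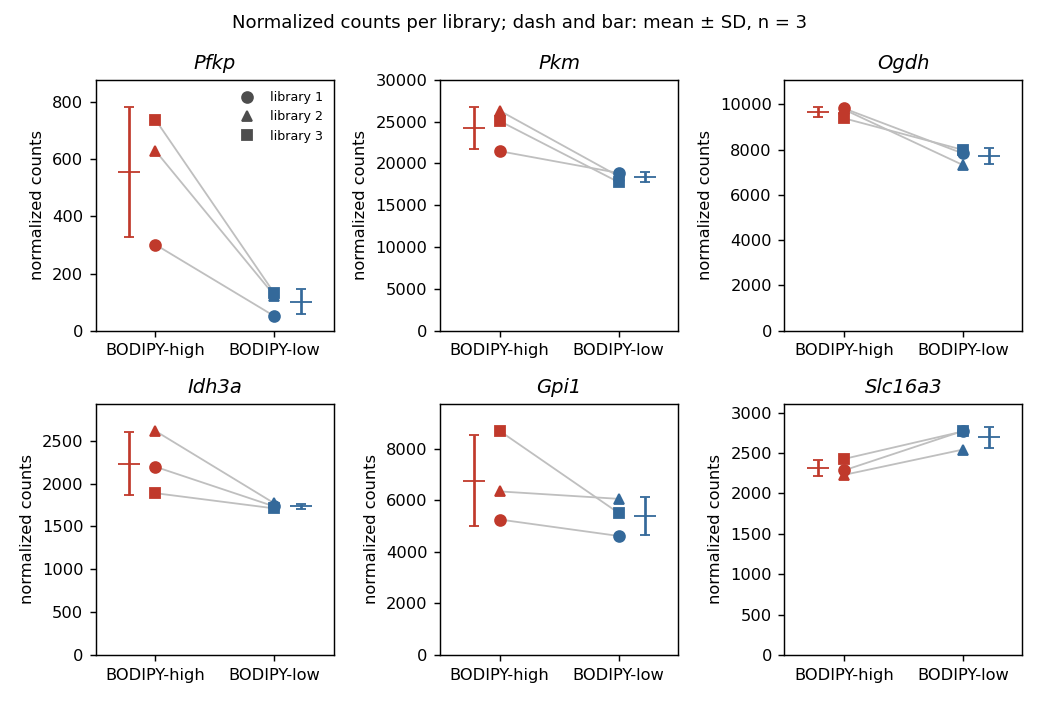
Normalized counts of 6 members in each library, with lines joining libraries of the same number and mean ± SD (n = 3) beside each gate. Pfkp, Pkm, Ogdh and Idh3a lie higher in all 3 BODIPY-high libraries, Gpi1 overlaps with BODIPY-high library 3 at 8702, and Slc16a3 lies lower.

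In the pentose phosphate pathway no gene passed the test (limma, 0 of 6 with and without pairs, and 0 at an unadjusted p under 0.05), and the gates overlapped for all 6. The oxidative arm starts with G6pdx, its rate-limiting dehydrogenase, which had 4779, 4943 and 6014 normalized counts in BODIPY-high and 4436, 4950.2 and 4823 in BODIPY-low libraries (log2 change 0.14 ± 0.11, adjusted p = 0.775). Pgls, the lactonase, averaged 1193 ± 191 in BODIPY-high and 1299 ± 134 in BODIPY-low libraries, the lowest change of the 6 (-0.13 ± 0.15). Pgd, the second NADPH-making enzyme, averaged 4454 ± 669.7 in BODIPY-high and 4219 ± 379 in BODIPY-low libraries (0.07 ± 0.13).

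The non-oxidative arm looked alike. Tkt, transketolase, was higher in BODIPY-high in 3 of 3 pairs, with 4042, 4342 and 5576 normalized counts in BODIPY-high and 3723, 4274 and 4351 in BODIPY-low libraries (0.17 ± 0.13, adjusted p = 0.782). Taldo1 had 5546, 5380.3 and 7790.1 in BODIPY-high and 5557, 6392 and 7002 in BODIPY-low libraries (-0.03 ± 0.15). Rpia rested on 127 reads in BODIPY-high and 97 in BODIPY-low libraries in total, and its 95% interval of -0.79 to 1.32 was too wide to place it. BODIPY-high library 3 was the highest of the 6 libraries for 4 of the 6 genes, against 22.4% of all genes. It was also the highest for 8 of 15 glycolysis genes and 3 of 16 TCA genes. The summed neutrophil markers were highest there as well, at 86631, 106490.0 and 217942 normalized counts in BODIPY-high and 74715, 154087 and 158754 in BODIPY-low libraries, with none at 0 and 0 of 10 called (limma; 3 higher and 0 lower at an unadjusted p under 0.05, and 2 called higher with pairs), and their part was not tested.

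Pyruvate enters the TCA cycle through the pyruvate dehydrogenase complex, whose 3 members all overlapped between gates. Pdha1, its first catalytic subunit, had 1622, 1657 and 1519 normalized counts in BODIPY-high and 1272, 1312 and 1556 in BODIPY-low libraries (log2 change 0.22 ± 0.12, adjusted p = 0.612). Pdhb and Dlat, its partner subunits, had changes of 0.02 ± 0.11 and 0.06 ± 0.13. Cs, citrate synthase, averaged 4951 ± 355 in BODIPY-high and 4729 ± 173 in BODIPY-low libraries (0.06 ± 0.09).

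Ogdh, the first subunit of the oxoglutarate dehydrogenase complex, a control point of the cycle, had 9819.9, 9771 and 9383 normalized counts in BODIPY-high and 7827, 7315 and 7984 in BODIPY-low libraries. The gates were well apart, with means of 9658 ± 239.5 in BODIPY-high and 7709 ± 350.0 in BODIPY-low libraries and a ratio of 1.25. The log2 change was 0.33 ± 0.08, with a limma adjusted p of 0.11 and of 0.0323 with pairs. Ogdh lies on the plus strand at chr11:6291633-6356642. Dlst, the second subunit of the same complex, overlapped between gates, with 2679, 2809 and 2895 in BODIPY-high and 2803, 3024 and 2878 in BODIPY-low libraries (-0.05 ± 0.09).

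The subunits of the NAD-dependent isocitrate dehydrogenase did not all have the same sign of change. Idh3a, its catalytic subunit, had 2197, 2615 and 1889 normalized counts in BODIPY-high and 1733, 1769.7 and 1711 in BODIPY-low libraries, without overlap (0.35 ± 0.13, limma adjusted p = 0.358; 0.0996 with pairs). Idh3b and Idh3g, its partner subunits, overlapped between gates (-0.06 ± 0.10 and -0.02 ± 0.11). Idh3a made up 17.1 ± 2.93% of the per kb signal of the 3 subunits in BODIPY-high and 13.6 ± 1.01% in BODIPY-low libraries, and these shares overlapped.

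Among the NADP-dependent isozymes, the cytosolic Idh1 averaged 3443 ± 454 normalized counts in BODIPY-high and 3081 ± 122 in BODIPY-low libraries, and the mitochondrial Idh2 averaged 5282 ± 261 in BODIPY-high and 5243 ± 126 in BODIPY-low libraries. Both overlapped between gates (0.15 ± 0.11 and 0.01 ± 0.08). Further round the cycle, the succinyl-CoA ligase subunits Sucla2 and Suclg1 overlapped (0.10 ± 0.11 and 0.09 ± 0.11). Fh1, fumarase, had 1439, 1513 and 1859 in BODIPY-high and 1359, 1379 and 1406 in BODIPY-low libraries, without overlap (0.21 ± 0.12, adjusted p = 0.669).

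Of the malate dehydrogenases, the cytosolic Mdh1 had 6908, 7767 and 7486 normalized counts in BODIPY-high and 6557, 6664 and 6565 in BODIPY-low libraries, again without overlap (0.16 ± 0.08, limma adjusted p = 0.593). The mitochondrial Mdh2 had 4714, 5195 and 5485 in BODIPY-high and 4391, 5298 and 5186 in BODIPY-low libraries, with overlap (0.05 ± 0.11).

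Set side by side, the 3 pathways had similar median changes with all 6 libraries in the fit, and the sign of that of the pentose phosphate genes rested on 1 library. The median log2 change was 0.10 in glycolysis, 0.11 in the pentose phosphate pathway and 0.08 in the TCA set, against -0.004 for all genes tested and -0.017 for genes with a mean of at least 1000. Without BODIPY-high library 3 the pentose phosphate median was -0.0087, and without BODIPY-high library 2 it was 0.17; with any 1 library left out, glycolysis stayed between 0.09 and 0.15 and the TCA set between 0.04 and 0.11. The TCA median was 0.048 when BODIPY-high library 2 was left out and 0.041 when BODIPY-low library 1 was. Changes above 0 were found for 11 of 15, 4 of 6 and 13 of 16 members. BODIPY-high libraries all lay above BODIPY-low libraries for 5 of 15 glycolysis genes, 0 of 6 pentose phosphate genes and 4 of 16 TCA genes, against 10.4% of all genes. These 9 genes were Hk3, Pfkp, Aldoa, Pgk1, Pkm, Idh3a, Ogdh, Fh1 and Mdh1. In 3 of 3 pairs, 8, 1 and 7 genes of the pathways were higher, against 20.7% of all genes.

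Taken library by library, the pathway medians of the gates overlapped in all 3 pathways, while within pairs of the same number BODIPY-high was higher in 3 of 3 pairs for glycolysis and for the TCA set and in 2 of 3 for the pentose phosphate genes. No test was made of these medians. The per-library median, taken as log2 deviations from the mean of the 6 libraries, was -0.03, 0.05 and 0.18 for glycolysis in BODIPY-high and -0.07, -0.05 and -0.03 in BODIPY-low libraries, which met at their edges. For the pentose phosphate genes it was -0.04, -0.17 and 0.27 in BODIPY-high and -0.13, -0.02 and 0.03 in BODIPY-low libraries, so the BODIPY-high libraries spanned the BODIPY-low ones. For the TCA set it was -0.03, 0.10 and 0.04 in BODIPY-high and -0.13, -0.02 and 0.01 in BODIPY-low libraries, with overlap.

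**Figure D5:**
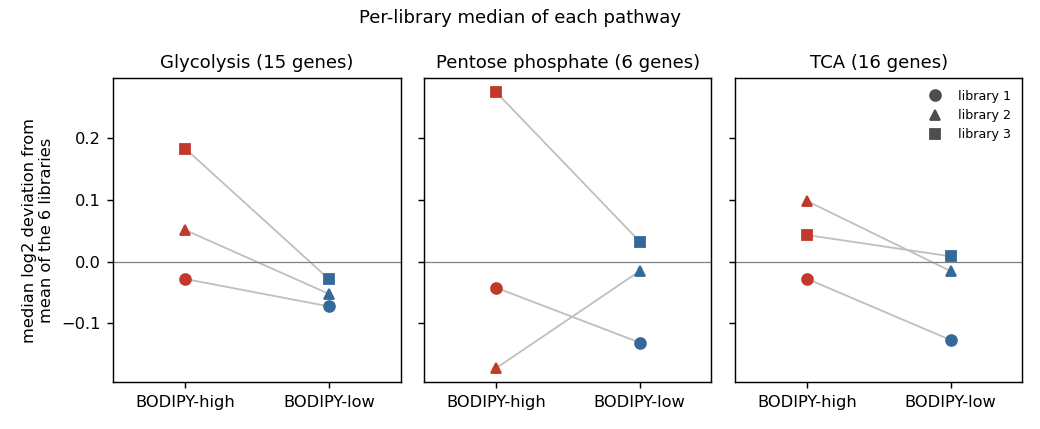
Median over the members of each pathway of the log2 deviation from the mean of the 6 libraries, by gate, with lines joining libraries of the same number. The pentose phosphate values of the BODIPY-high libraries run from -0.17 to 0.27 and enclose those of the BODIPY-low libraries.

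As a share of all normalized counts, glycolysis genes made up 0.315, 0.353 and 0.387% in BODIPY-high and 0.301, 0.313 and 0.325% in BODIPY-low libraries. TCA genes made up 0.150, 0.161 and 0.162% in BODIPY-high and 0.135, 0.146 and 0.148% in BODIPY-low libraries, and pentose phosphate genes 0.0527, 0.0523 and 0.0721% in BODIPY-high and 0.0503, 0.0551 and 0.0595% in BODIPY-low libraries. The TCA shares did not overlap between gates, and the others did. The balance between pathways was close: summed per kb, glycolysis stood to the TCA set as 2.22, 2.34 and 2.54 in BODIPY-high and 2.30, 2.25 and 2.31 in BODIPY-low libraries, and to the pentose phosphate genes as 5.41, 6.30 and 4.94 in BODIPY-high and 5.32, 5.16 and 4.88 in BODIPY-low libraries. Both ratios overlapped.

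Further genes of the same pathways gave few calls. Of 18 other glycolysis enzymes and carriers tested, 1 rose, Aldoc, the brain-type aldolase, and with pairs 2 did, with a median log2 change of 0.11. Aldoc had 408, 274 and 331 normalized counts in BODIPY-high and 65.8, 50.5 and 57.9 in BODIPY-low libraries, 5.82-fold higher, with no overlap (log2 change 2.51 ± 0.27, limma adjusted p = 0.00465, and 0.00739 to 0.0385 with any 1 library left out). It gave 0.897% of the aldolase signal per kb in BODIPY-high and 0.174% in BODIPY-low libraries. Aldoc is also an astrocyte marker, and the count and sums given next include Aldoc itself. Of 9 such markers tested, 4 were called higher, with a median log2 change of 1.85. Their sums were 12799 to 14614 in BODIPY-high and 10933 to 11917 in BODIPY-low libraries, with Slc1a3 the most abundant. None was at 0, and the part of astrocytes was not tested.

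Of 19 other genes of the TCA cycle and pyruvate entry, 1 rose, Pdk4, a kinase that inactivates pyruvate dehydrogenase, with a median of 0.03 for the list. It had 15.02, 14.96 and 30.3 normalized counts in BODIPY-high libraries and 0 in each BODIPY-low library, from 63 reads against 0. Against a floor of 3 reads over the BODIPY-low group this is at least 19.0-fold higher (limma adjusted p = 0.0353), and the call was lost with any 1 library left out (0.0527 to 0.205). Pdk4 passed the filter on low values only through its BODIPY-high libraries, so its place among the genes tested depends on the gate where it is high.

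None of 7 other pentose phosphate genes (limma; 0 higher and 0 lower at an unadjusted p under 0.05), 14 regulators of glycolysis and gluconeogenesis (0 higher and 0 lower at an unadjusted p under 0.05) or 14 genes of TCA side reactions (4 higher and 0 lower at an unadjusted p under 0.05) passed. In the last list Slc25a10, the dicarboxylate carrier, had 1350.4, 2060.0 and 2563 normalized counts in BODIPY-high and 1152, 1064 and 1148 in BODIPY-low libraries, without overlap, and Me1, the NADPH-making malic enzyme, had 47.0, 180.5 and 109 in BODIPY-high and 20.8, 1.03 and 9.48 in BODIPY-low libraries. Both passed with pairs (limma adjusted p = 0.022 and 0.036; 0.137 and 0.0909 without). Of 16 targets of the hypoxia factor HIF1 outside glycolysis, 1 rose, the carbonic anhydrase gene Car12, and the median log2 change was 0.03. Car12 had 378, 475 and 511 normalized counts in BODIPY-high and 2.19, 1.03 and 47.4 in BODIPY-low libraries. Its limma adjusted p was 0.0227, and the call was lost in 5 of 6 fits with 1 library left out. The part of the choroid plexus and other cells given above in the change of Car12 was not tested. Like Pdk4, Me1 and Car12 passed the filter on low values through their BODIPY-high libraries, as most of their BODIPY-low values were below 10.

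The promoters of Pfkp, Pkm and Ogdh, the members called in the paired fit, and of Ldha, a classical hypoxia target that was not called, are shown as RefSeq windows of 250 bases before to 50 after the start on GRCm38.p6, read on the strand of the gene. Capitals mark ACGTG or its reverse complement CACGT, the core of the hypoxia response element, and GGGCGG or its reverse complement CCGCCC, the GC box. A CACGTG, which is also the E-box, counts as 1 match. The windows are chr13:6648722-6649021 (minus strand) for Pfkp, chr9:59656326-59656625 (plus) for Pkm, chr11:6291347-6291646 (plus) for Ogdh and chr7:46845554-46845853 (plus) for Ldha.
Pfkp: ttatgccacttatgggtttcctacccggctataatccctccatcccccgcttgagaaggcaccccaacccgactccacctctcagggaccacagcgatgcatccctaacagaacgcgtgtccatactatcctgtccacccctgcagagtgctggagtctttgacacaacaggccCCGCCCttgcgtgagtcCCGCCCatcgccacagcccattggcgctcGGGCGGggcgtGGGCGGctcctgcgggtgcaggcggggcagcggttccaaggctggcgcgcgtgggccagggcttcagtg
Pkm: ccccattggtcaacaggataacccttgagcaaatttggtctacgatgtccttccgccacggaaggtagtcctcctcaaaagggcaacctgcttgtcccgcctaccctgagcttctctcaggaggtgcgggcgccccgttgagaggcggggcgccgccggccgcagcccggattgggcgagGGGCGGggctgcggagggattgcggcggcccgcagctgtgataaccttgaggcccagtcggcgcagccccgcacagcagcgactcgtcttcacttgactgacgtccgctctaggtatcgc
Ogdh: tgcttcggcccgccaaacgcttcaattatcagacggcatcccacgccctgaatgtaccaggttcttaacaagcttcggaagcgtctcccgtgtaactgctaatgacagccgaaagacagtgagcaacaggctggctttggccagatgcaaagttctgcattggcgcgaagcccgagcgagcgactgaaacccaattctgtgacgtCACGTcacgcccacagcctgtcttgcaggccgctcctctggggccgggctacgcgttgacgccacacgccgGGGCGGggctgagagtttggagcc
Ldha: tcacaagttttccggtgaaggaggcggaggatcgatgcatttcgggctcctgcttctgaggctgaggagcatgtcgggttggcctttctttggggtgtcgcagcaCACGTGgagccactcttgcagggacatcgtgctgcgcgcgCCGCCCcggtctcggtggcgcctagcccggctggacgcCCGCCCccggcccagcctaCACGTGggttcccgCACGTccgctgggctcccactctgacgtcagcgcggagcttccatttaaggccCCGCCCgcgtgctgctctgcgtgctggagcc

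A window was found for 36 of 37 members, taking the one farthest 5′ where a gene had several. ACGTG on either strand stood in 9 of 15 glycolysis windows (60.0%), 1 of 6 pentose phosphate windows and 4 of 15 TCA windows (26.7%), against 25.7% of the 9745 tested genes with a window and 19.6% of all 27025. Pfkp and Pkm held none, Ogdh 1 and Ldha 3. GGGCGG stood in 11 of 15, 6 of 6 and 11 of 15 windows, against 63.9% of tested genes, with 4 in Pfkp, 1 in Pkm, 1 in Ogdh and 3 in Ldha. The 9 glycolysis genes with ACGTG had a median log2 change of 0.04 and the 6 without it 0.23. The order was the other way in the TCA set, with medians of 0.09 for the 4 genes with it and 0.06 for the 11 without. The 1 pentose phosphate gene with it had a change of 0.14, and the 5 without it a median of 0.07. No test was made of these medians. A match describes these letters only and is not a measured binding site.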

How the data were processed

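RNA-seq was compared between 3 BODIPY-high and 3 BODIPY-low libraries. Read quality was assessed by the authors with FastQC 0.11.4 and alignment to mm10 and gene counting done with STAR 2.5.3a, followed by DESeq2 under its default options, all per the labels' design text; the submitters' processing notes name mm9 as well as mm10, and for the annotation and strand column the sources used here give nothing. The values the authors deposited are a normalized signal per gene and library, that is, counts divided by a size factor per library (0.911 to 1.09). Within 0.05 of a read, 100% of values were whole multiples of 1 step, which gave the read totals; a count of 0 allows up to 3 reads, 2.76 to 3.29 normalized counts. The labels name no molecular identifiers, so reads copied by PCR are not separate molecules and such a floor covers counting error only. SmartSeq v4 and Nextera XT keep no strand. Libraries of saline-treated mice were not analysed here.

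Genes with at least 10 normalized counts in at least 3 of 6 libraries (12767) were fitted with limma 3.58.1 (R 4.3.3) on log2(value + 1), with intensity trend and gate as the only term. Changes on this scale understate those of low genes. Tests are two-sided, adjusted p is Benjamini-Hochberg over the 12767 genes, a call is adjusted p under 0.05, and ± after a log2 change is the SE and after a mean the SD. The labels do not say that samples of a gate came from different animals, and p-values therefore reflect the spread among samples only, which may be technical. Libraries of the same number deviated together from their gate means (r = 0.354, 0.244 and 0.363 across genes, against -0.255 to -0.0951 for other pairs), so a fit with the replicate number as block is printed where it changes a call. The test was first tried on simulated data.

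Members and lists were chosen with earlier results of these data known. All members can be named; of other pathway genes, those called and at most 2 of smallest p per list. One gene that this rule selects is not reported here. Coordinates and transcript lengths are from GENCODE M21 (15281 of 15912 symbols found), promoters from RefSeq (GRCm38.p6). Exons of 10 members share bases with another listed gene, among them Pfkp, G6pdx, Gapdh and Pgls, and 6 glycolysis members have named pseudogene copies (17 in all) without a row, so their counts are less certain. Alternatives were a pseudocount of 4, no filter, a filter of 50, scaling by summed reads, upper-quartile scaling (chosen after seeing the data), the block and leaving out each library.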

Additional observations from a re-analysis of the deposited data

How the results depend on the processing

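The genes called over the whole table numbered 259 higher and 3 lower. With a filter of 50 normalized counts they were 131 and 1, scaled by summed reads 1 was lower, and with the replicate block they were 558 and 59. Leaving out 1 library gave 15 to 271 higher and 0 to 2 lower; the counts of genes higher were 169, 15 and 59 without BODIPY-high library 1, 2 or 3 and 135 and 117 without BODIPY-low library 1 or 2. Without BODIPY-high library 2, 833 genes were higher and 217 lower at an unadjusted p under 0.05. With the block, 2 glycolysis genes (Pfkp and Pkm) and 1 TCA gene (Ogdh) were called, and it changed no other member's call. Leaving out 1 library left 0 to 1 glycolysis genes called. The cause was not tested. Median changes of the 3 pathways moved by less than the spread between libraries under every alternative run, with ranges over left-out libraries of 0.09 to 0.15 for glycolysis, 0.04 to 0.11 for the TCA set and -0.0087 to 0.17 for the pentose phosphate genes, whose median was below 0 without BODIPY-high library 3. Scaled by summed reads, Pgam1 (0.016) and Idh3g (0.0085) were above 0. With 1 library left out the log2 change took both signs for 11 members, none of them called: -0.23 to 0.11 for Hk2, -0.051 to 0.12 for Tpi1, -0.064 to 0.15 for Gapdh, -0.081 to 0.073 for Pgam1, -0.046 to 0.16 for Pgd, -0.20 to 0.064 for Taldo1, -0.068 to 0.087 for Pdhb, -0.013 to 0.19 for Dlat, -0.028 to 0.042 for Idh2, -0.11 to 0.046 for Idh3g and -0.033 to 0.11 for Mdh2. Count models and TMM scaling, planned as alternatives, were not run. The median over all genes stayed between -0.016 and 0.019 in all settings. Depth limits Rpia, and 3 libraries per gate limit small changes.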
